A study of Mus musculus with 12 samples.

Results

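The 52 genes described here encode the machinery that carries newly made proteins from the endoplasmic reticulum (ER) to the Golgi apparatus. They were chosen by function from 6 groups: 4 translocon genes, 11 genes of the COPII coat, 10 cargo receptor genes, 12 genes of the COPI coat and its Arf GTPases, 8 SNARE genes and 7 genes of the Golgi and trans-Golgi network. The rule names genes by function, but they were proposed with earlier results of these data known, so their counts are descriptions beside the share of all genes. The deposited table lists 23420 genes, and all 52 were in it. All 52 also passed the filter on low counts, which kept 13095 genes for testing, and the lowest count of any of them in a tumor was 203.

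RNA was sequenced from 12 bulk tumors, 3 from each of 4 groups, to ask how obesity alters tumors and their response to PD-1 blockade. Every tumor grew from B16-F10 cells, a melanoma line of C57BL/6 origin, implanted under the skin of a male C57BL/6J mouse with no labelled genetic change. Nonobese mice ate a matching control diet, and obese mice ate a Western diet with added cholesterol for 15 weeks. Once tumors could be felt, both diets were divided into mice given an isotype control antibody and mice given anti–PD-1, each injected intraperitoneally at 10 mg/kg. Each tumor came from a different mouse. All mice carried the same single tumor line, so the diet and the antibody were the labelled differences between groups.

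Total counts per tumor lay between 14022929 and 33871843. Summed melanoma markers (8 genes such as Dct and Pmel) lay between 26045 and 31886 CPM, counts scaled to a fixed library size, in all 12 tumors, with none at 0. Fibroblast markers (6 genes such as Col1a1 and Dcn) were more uneven. Their sum was 581, 2437 and 2757 CPM in the nonobese isotype tumors, 261, 525 and 527 in the nonobese anti–PD-1 tumors, 994, 194 and 1070.1 in the obese isotype tumors and 412, 1402 and 1824 in the obese anti–PD-1 tumors. In bulk tissue, fewer cells of a type and less RNA per cell cannot be told apart. CPM values use the library size times its TMM factor, and a gene was called higher or lower at an unadjusted P below 0.05 by edgeR, with the Benjamini-Hochberg false discovery rate (FDR) over all 13095 genes beside it. The verbs rose and fell refer to that threshold. An exact permutation test of 3 tumors against 3 has a smallest two-sided P of 0.1 and was not used for single genes.

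Proteins bound for secretion, the cell surface or the endosomal system enter the ER through the Sec61 translocon. COPII vesicles, built by Sar1, Sec23, Sec24, Sec13 and Sec31 on sites organized by Sec16, then carry folded cargo forward, and cargo receptors such as Lman1 and the Tmed (p24) proteins load it. COPI vesicles, recruited by Arf GTPases, return escaped ER proteins that Kdelr receptors recognize, and SNARE proteins fuse the vesicles with their target membrane. Pigment cells depend on this route for the melanosomal proteins that B16-F10 cells make in quantity. When protein load exceeds folding capacity, the unfolded protein response raises the expression of many of these genes.

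All 52 genes were expressed in every tumor. Levels between genes were compared per length, as CPM per kilobase of annotated exon (RPKM), and the mean over 12 tumors ran from 3.11 RPKM for Sec24a to 259.9 RPKM for Arf1, with a median of 27.1. These levels divide by all annotated exon bases of a gene, and some orders turn when the longest transcript is used instead. Arf1, the GTPase that recruits the COPI coat, stood above Arf3 (71.2 RPKM) and Arf4 (61.0 RPKM), and by the longest transcript Arf4 (101 RPKM) passed Arf3 (75.2 RPKM). Sec61a1, the pore subunit of the translocon, was next at 148 RPKM, but by the longest transcript it was first at 314 RPKM, above Arf1 at 273 RPKM. Among the KDEL receptors the order was Kdelr1 (82.8), Kdelr2 (67.6) and Kdelr3 (14.6 RPKM), and the ranges of Kdelr1 and Kdelr2 overlapped. Among the Sec24 cargo adaptors the order was Sec24c (29.4), Sec24b (16.7), Sec24d (14.6) and Sec24a (3.11 RPKM), and only Sec24b and Sec24d overlapped. By the longest transcript Sec24d (23.6 RPKM) passed Sec24b (19.6 RPKM). The least abundant SNARE was Vamp4, a SNARE of the trans-Golgi network, at 3.78 RPKM, and the most abundant were Ykt6 and Gosr2 at 58.3 and 55.4 RPKM.

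**Figure D1:**
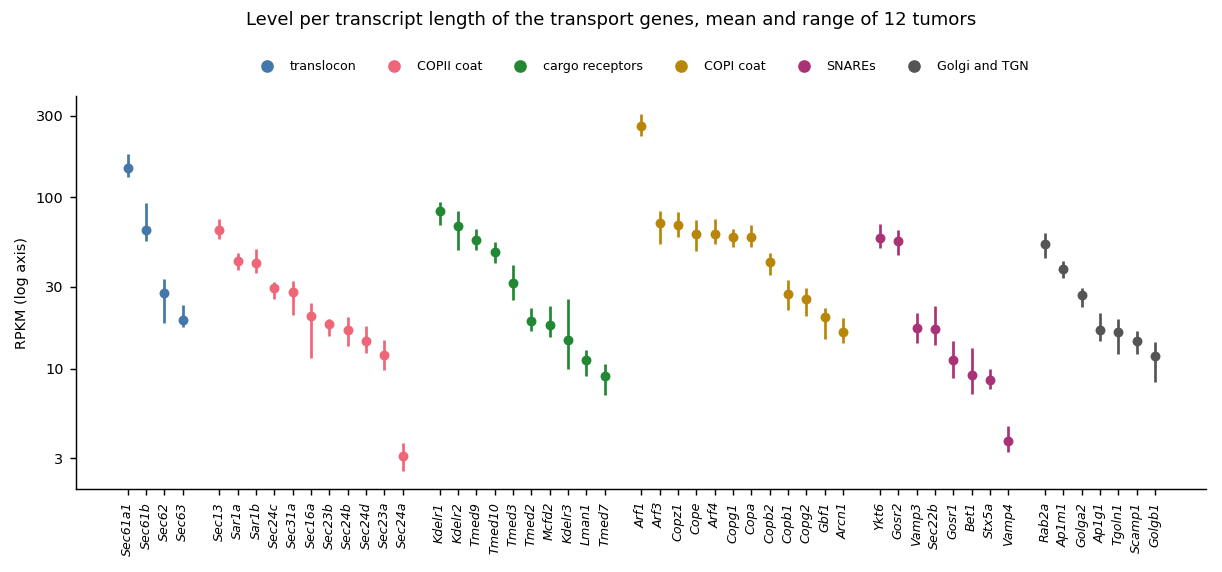
Level per length of the 52 transport genes, as RPKM over all annotated exon bases on a log axis, with points for the mean and lines for the range of all 12 tumors, colored and grouped by role. Arf1 and Sec61a1 stand above all others on this length, and Sec24a and Vamp4 lie lowest.

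The genes varied little between tumors. The coefficient of variation of CPM over all 12 tumors had a median of 10.7% and lay between 6.29% for Ap1m1, a subunit of the AP-1 adaptor, and 33.1% for Kdelr3. Bet1 (19.1%) and Sec16a (18.3%) followed Kdelr3. No gene had a fold change above 2 in any comparison.

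The promoters of some of these genes share a short sequence. RefSeq promoter windows (GRCm38.p6, 250 bases before to 50 bases after the start site) were matched by symbol for 42 of the 52 genes. The letters TGACGTGG, the core of the element that the unfolded protein response factors XBP1 and ATF6 are known to bind, were searched on both strands. They occurred in the windows of 8 of the 42 genes (19%), namely Arf1, Copb1, Copb2, Gbf1, Kdelr3, Sec23a, Sec24d and Stx5a. Of all 27025 genes in the same table, 193 (0.714%) held them. The 10 matches began between 84 bases before and 40 bases after the start site. Stx5a held 2 copies, and the Arf1 match fell in both of its overlapping windows. Other patterns were searched in the same way. The ER stress response element (ERSE) occurred in 0 of the 42 genes and in 0.137% of all genes, and its variant ERSE-II in 0 and 0.0444%. TGACGTCA, the cyclic AMP response element, occurred in Cope and Gosr2 and in 2.03% of all genes. GTCACGTG, the E box of lysosomal genes, occurred in Sec62 and Tmed10 and in 2.55%. The patterns overlap in part, since TGACGTCA shares its first 6 letters with TGACGTGG and the last letters CCACG of the ER stress element also open the reverse complement CCACGTCA. A match is a description of the letters, not a shown binding site.

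The 150 bases before the start site are shown for Copb1, Sec24d and Kdelr3, the 3 genes called in at least 1 comparison below whose match lies whole within that stretch. They lie at chr7:114254681-114254830 (minus strand), chr3:123267346-123267495 (plus strand) and chr15:79516258-79516407 (plus strand), and each is written 5′ to 3′ in the direction of its gene. Capitals mark TGACGTGG or, where it sits on the opposite strand, its reverse complement CCACGTCA, which begins 28, 26 and 30 bases before the RefSeq start site in that order. In GENCODE M21, Copb1 starts at chr7:114254711 and Sec24d at chr3:123267455, so both of these matches lie inside the annotated gene. Kdelr3 starts there at chr15:79516411, after its match.
Copb1: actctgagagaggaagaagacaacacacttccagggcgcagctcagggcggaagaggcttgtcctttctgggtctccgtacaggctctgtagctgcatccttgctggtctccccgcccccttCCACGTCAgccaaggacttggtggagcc
Sec24d: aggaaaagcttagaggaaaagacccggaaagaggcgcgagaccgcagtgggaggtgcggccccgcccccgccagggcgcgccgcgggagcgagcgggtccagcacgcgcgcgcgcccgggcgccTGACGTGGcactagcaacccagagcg
Kdelr3: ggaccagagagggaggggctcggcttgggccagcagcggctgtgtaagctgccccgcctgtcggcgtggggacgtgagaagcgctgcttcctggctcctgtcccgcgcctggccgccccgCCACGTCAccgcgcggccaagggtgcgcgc

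The baseline effect of obesity was examined in the isotype-treated tumors. Of the 52 genes, 12 rose in obese mice and 0 fell, which is 23.1%, while 7.11% of all genes tested rose and 6.17% fell. The 12 were 5 SNARE genes (Bet1, Sec22b, Gosr1, Gosr2, Ykt6), 3 cargo receptor genes (Mcfd2, Tmed2, Tmed9), 3 COPI and Arf genes (Copb1, Arf4, Copg2) and Tgoln1 of the trans-Golgi network. Fold changes above 0 were found for 41 genes (78.8%, against 52.1% of all genes), and the median log2 fold change was 0.20, against 0.01 for all genes. On a gene list of the study were 14 of the 52, of which 6 rose and all 14 lay above 0, with a median of 0.23. Of the other 38, 6 rose, 27 lay above 0 and the median was 0.11. The study's list may rest on these same tumors, so this split, here and below, is a description and gives no separate support. All 3 obese tumors lay above all 3 nonobese tumors for 12 genes and below them for 0, against 10.4% and 9.02% of all genes. The log2 fold changes of the 12 lay between 0.24 and 0.55. No gene had an FDR below 0.05 by edgeR, whose lowest value was 0.190, and 0.0% of all genes passed. DESeq2 called 11 of the 52 higher at an unadjusted P below 0.05, where it called 861 of 13095 genes higher and 972 lower. At an FDR below 0.05 it called 1 of the 52, Bet1 (1.54% of all genes).

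Bet1, a SNARE on vesicles between the ER and the Golgi, had the smallest P value. It stood at 30.1, 26.4 and 27.9 CPM in the nonobese isotype tumors and at 34.4, 49.5 and 39.9 CPM in the obese isotype tumors. All 3 obese tumors were above all 3 nonobese tumors, and the second obese tumor was the highest of the series. The log2 fold change was 0.55 (standard error 0.14, adjusted p = 0.190 by edgeR). The gene lies at chr6:4076899-4086972 on the minus strand.

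Sec22b, a SNARE that joins Bet1 in the complex for ER-derived vesicles, was chosen for its values in each tumor after they were seen. It stood at 66.6, 54.5 and 54.5 CPM in nonobese and 72.2, 92.7 and 74.8 CPM in obese isotype tumors, without overlap. The log2 fold change was 0.45 (standard error 0.14, adjusted p = 0.263 by edgeR). Among the Golgi SNAREs, Gosr1 rose from 41.0 ± 4.05 to 55.2 ± 7.43 CPM and Gosr2 from 165 ± 14.2 to 201 ± 10.8 CPM (SD, n = 3). Ykt6, a lipid-anchored SNARE, rose from 162 ± 5.51 to 191 ± 19.7 CPM. The other SNARE genes had log2 fold changes of 0.20 (Stx5a), 0.20 (Vamp4) and 0.10 (Vamp3), and none of the 3 was called.

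Tmed2, a p24 protein that cycles between the ER and the Golgi, stood at 45.0, 41.9 and 44.9 CPM in nonobese and 52.7, 55.7 and 57.2 CPM in obese isotype tumors. The groups did not overlap, and the spread within each was small. The log2 fold change was 0.33 (standard error 0.10, adjusted p = 0.245 by edgeR). Its relatives differed in how clearly they separated. Tmed9 stood at 193, 173 and 168 CPM in nonobese and 204, 223 and 203 CPM in obese isotype tumors, without overlap (log2 fold change 0.24, adjusted p = 0.376 by edgeR). Tmed7 stood at 84.9, 66.0 and 61.9 in nonobese and 76.8, 88.6 and 94.0 CPM in obese tumors, where the first nonobese tumor lay within the obese range (log2 fold change 0.28, adjusted p = 0.400 by edgeR). Tmed3 stood at 89.2, 79.4 and 90.4 in nonobese and 115, 102 and 85.5 CPM in obese tumors and Tmed10 at 282, 246 and 270.1 in nonobese and 260.0, 282 and 317 CPM in obese tumors, and both pairs of groups overlapped. Mcfd2, the partner of Lman1 in the receptor for coagulation factors, rose from 46.0 ± 3.27 to 56.8 ± 8.91 CPM (SD, n = 3). Its groups overlapped, and without the first obese isotype tumor its log2 fold change moved from 0.30 to 0.17 and was not called. Lman1 itself had a log2 fold change of 0.25 with adjusted p = 0.381 by edgeR. Its unadjusted P was just above 0.05, and its groups did not overlap.

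Copb1 encodes the beta subunit of the COPI coat. It stood at 152, 123 and 129 CPM in nonobese and 160.1, 170.0 and 184 CPM in obese isotype tumors, without overlap (log2 fold change 0.35, standard error 0.11, adjusted p = 0.250 by edgeR). Its promoter is the first shown above. Copb2, the beta-prime subunit, stood at 297, 223 and 245 in nonobese and 298, 282 and 299.6 CPM in obese tumors, and the first nonobese tumor was as high as the obese tumors. Copg2, a gamma subunit, stood at 133, 109.7 and 104 in nonobese and 128, 133 and 149 CPM in obese tumors, and the first nonobese tumor lay within the obese range (log2 fold change 0.24, adjusted p = 0.376 by edgeR). Its paralog Copg1, the more abundant gamma subunit, stood at 722, 638 and 658 in nonobese and 676, 563 and 685 CPM in obese tumors, with a log2 fold change of -0.07. Arf4 stood at 213, 193 and 213 in nonobese and 270.4, 249.4 and 224 CPM in obese tumors, without overlap (log2 fold change 0.27, adjusted p = 0.299 by edgeR). Arf1 stood at 549, 488 and 504 in nonobese and 600.0, 642 and 540.0 CPM in obese tumors, where the groups overlapped, and Arf3 at 393, 347 and 357 in nonobese and 323, 285 and 356 CPM in obese tumors, with a log2 fold change of -0.19. Reads from near-identical stretches of paralogs such as Arf1 and Arf3 can be left uncounted or misplaced, so values within these families are less certain.

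The COPII coat genes lay lower. None of the 11 rose or fell by edgeR, and the median log2 fold change was -0.07. Sar1a, the GTPase that starts coat assembly, was the only COPII gene whose 3 obese tumors were all higher (log2 fold change 0.16, adjusted p = 0.460 by edgeR). The lowest values were -0.26 for Sec16a, the scaffold of ER exit sites, and -0.24 for Sec31a, the outer coat subunit (adjusted p = 0.609 and adjusted p = 0.504 by edgeR). Sec16a, also chosen after its values were seen, stood at 223, 180.3 and 217 CPM in nonobese and 205, 105 and 208 CPM in obese isotype tumors, and the second obese tumor was far below the other 5. The medians of the other groups were 0.12 (translocon), 0.25 (cargo receptors), 0.20 (COPI and Arf), 0.26 (SNAREs) and 0.08 (Golgi and trans-Golgi network). Whether the groups of genes differ from each other was not tested.

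**Figure D2:**
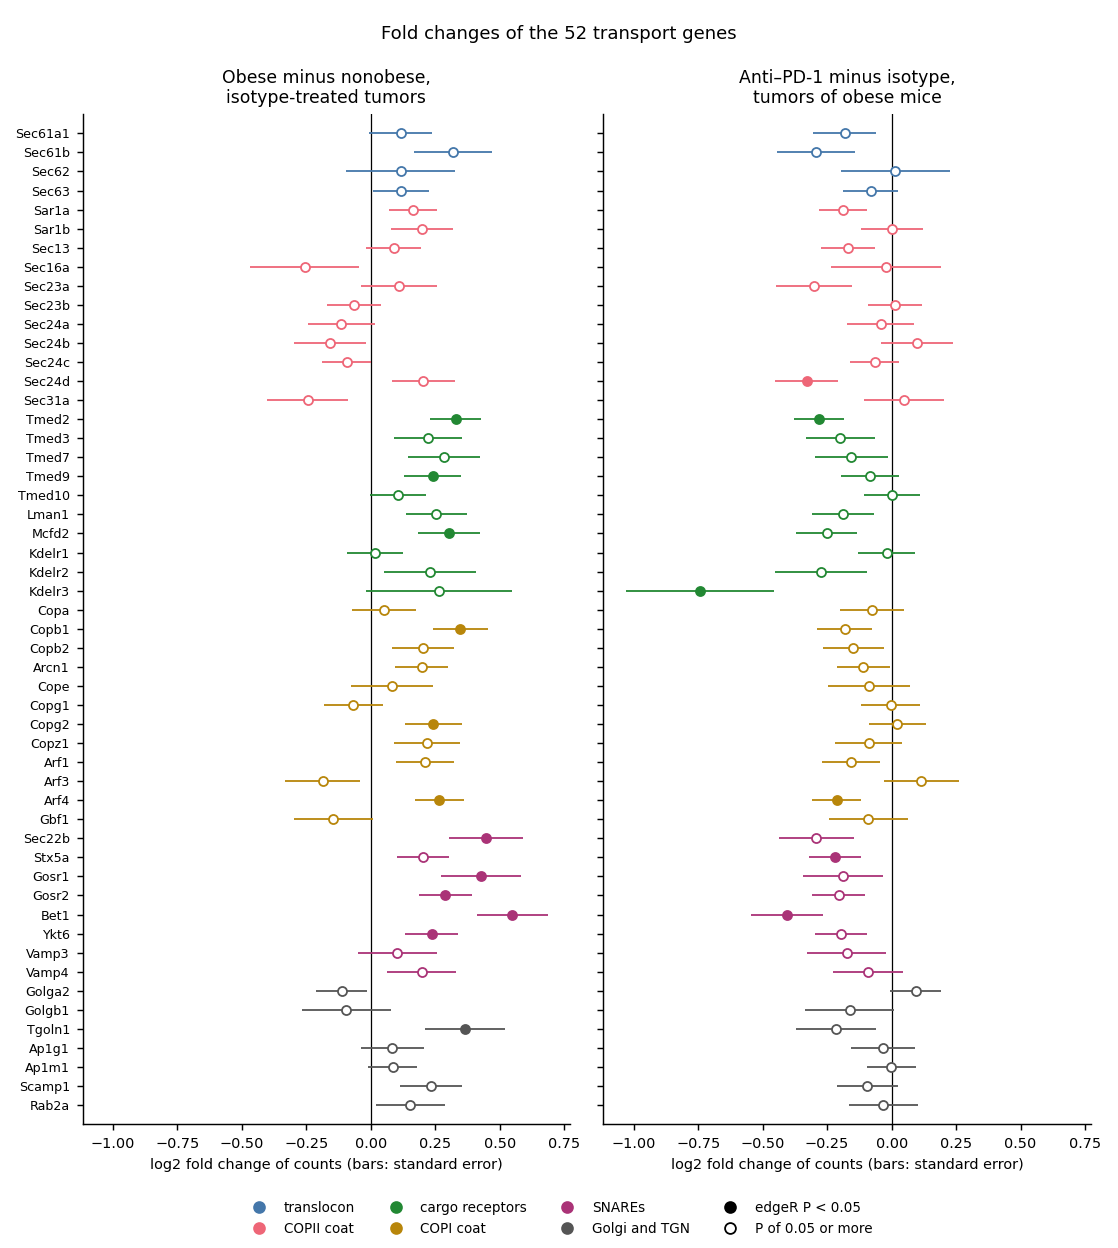
Log2 fold changes of the 52 transport genes with standard errors by edgeR, obese against nonobese isotype tumors (left) and anti–PD-1 against isotype tumors of obese mice (right), colored by role and filled where the unadjusted P was below 0.05. In the left panel 12 filled points lie above 0, in the right panel 6 lie below 0, and the obese isotype tumors enter both panels.

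The number of genes called in the isotype comparison rested on few tumors. The share of all genes called in the fits that left out a tumor was not computed, here or below. It was 4 without the second nonobese isotype tumor, 6 without the third, 19 without the first, 8 without the first obese isotype tumor and 7 without the second. Without the third obese isotype tumor it was 13 higher and 2 lower. The median log2 fold change was 0.10 without the second nonobese isotype tumor and between 0.14 and 0.25 without any other tumor. Bet1, Sec22b, Tmed2 and Copb1 had an unadjusted P below 0.05 in all 23 other settings that were run, and Copg2 and Tmed9 in 6 of the 23 each. The number was 21 for Gosr2, 20 for Arf4, 19 for Gosr1, 17 for Mcfd2 and for Tgoln1 and 13 for Ykt6.

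Other measures moved with this comparison. The second and the third nonobese isotype tumors held more fibroblast RNA than the first and had lower mean levels of the 52 genes than the first. Among the obese isotype tumors the order was the other way, since the second held the least fibroblast RNA and had the lowest mean level (0.054). Of the fibroblast markers, 1 of 6 was lower in obese isotype tumors (median log2 fold change -1.07). With the fibroblast level of each tumor as a covariate, an alternative chosen after the data were seen, 6 of the 52 were higher and the median was 0.12. The part of fibroblast content in the result was not tested beyond that fit. Skeletal muscle markers (6 genes such as Acta1 and Ckm) summed to 15.9, 335 and 299.7 CPM in the nonobese isotype tumors and to 10.5, 17.6 and 126 CPM in the obese isotype tumors (median log2 fold change -2.07, 0 of 6 called). The first nonobese tumor, with the lowest muscle sum of its group, had the highest mean level of the 52 genes in it. In the obese isotype group, the third tumor had both the highest muscle sum and the highest mean level (0.103). With the muscle level of each tumor as a covariate, again chosen after the data were seen, 7 of the 52 were higher (Bet1, Sec22b, Tmed2, Copb1, Gosr1, Gosr2 and Arf4) and the median was 0.11. Of the macrophage markers, 3 of 5 were lower in obese isotype tumors, with sums of 157 to 343 CPM in nonobese and 115 to 219 CPM in obese tumors. Of the adipocyte markers, 3 of 6 were lower (median log2 fold change -1.46), with sums of 18.02 to 42.4 CPM in nonobese and 15.3 to 23.2 CPM in obese tumors. The part of macrophage and adipocyte content was not tested. Of the T cell markers, 1 of 5 was lower (median -0.46), with sums of 1.25 to 2.85 CPM in nonobese and 1.18 to 1.72 CPM in obese isotype tumors.

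Transcript length moved with the fold changes as well. Across the 52 genes, which share the same libraries, the fold change correlated with the length of the longest transcript at a Spearman rho of -0.40, against -0.05 across 12318 genes. The 22 genes with transcripts under 3000 bases had a median log2 fold change of 0.22, and the 30 longer genes 0.11. The obese isotype tumors were unequal in this respect, since the second had low and the third had high levels of long genes. With the length slope of each tumor as a covariate, also chosen after the data were seen, 14 of the 52 were higher and the median was 0.19. The share of all genes called was not computed for any of the covariate fits, above or below.

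**Figure D3:**
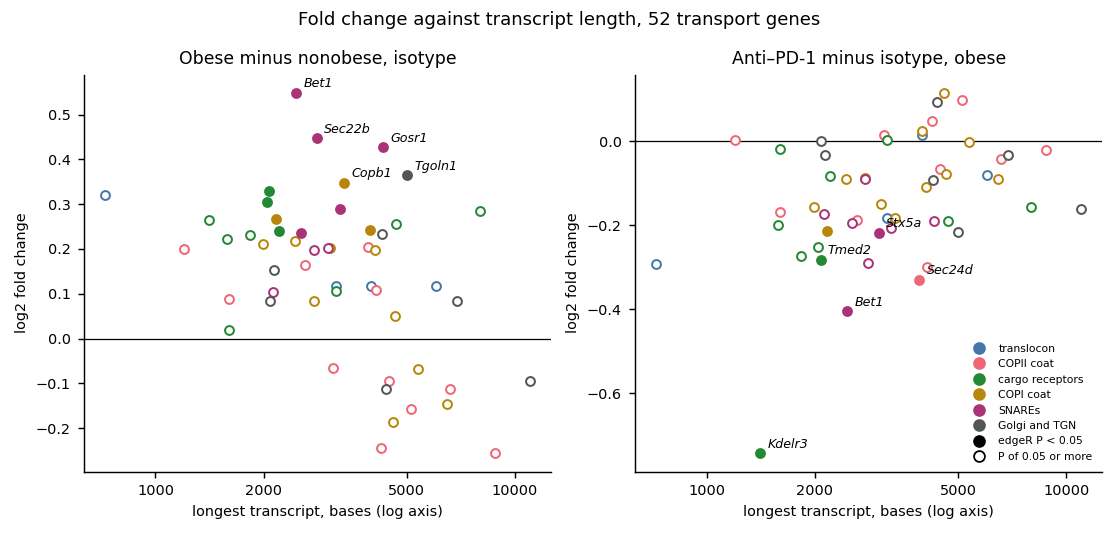
Log2 fold change of each of the 52 transport genes against its longest transcript in bases (log axis), for obese against nonobese isotype tumors (left) and anti–PD-1 against isotype in obese mice (right), colored by role and filled where the unadjusted P by edgeR was below 0.05. In the left panel the genes below 0 all have transcripts longer than 3000 bases.

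Anti–PD-1 was next compared with isotype in obese mice, a comparison that shares the 3 obese isotype tumors with the one above. Of the 52 genes, 6 fell and 0 rose, which is 11.5%, while 3.27% of all genes tested fell and 4.3% rose. The 6 were the SNARE genes Bet1 and Stx5a, the cargo receptor genes Tmed2 and Kdelr3, Sec24d of the COPII coat and Arf4. Fold changes below 0 were found for 43 genes (82.7%, against 52.4% of all genes), and the median was -0.13, against -0.01 for all genes. Of the 14 genes on the study's list 3 fell (median -0.19), and of the other 38 also 3 fell (median -0.09). Across the 52, fold change correlated with the length of the longest transcript at a Spearman rho of 0.35, against -0.05 across 12318 genes. The median was -0.18 for the 22 shorter genes and -0.09 for the 30 longer ones. All 3 treated tumors lay below all 3 isotype tumors for 9 genes (17.3%, against 7.0% of all genes) and above them for 0 (5.45% of all genes). No gene had an FDR below 0.05 by edgeR, whose lowest value for the 52 was 0.473, and 0.0% of all genes passed. DESeq2 called 5 lower at an unadjusted P below 0.05, where it called 392 of 13095 genes lower and 651 higher. At an FDR below 0.05 it called 0 of the 52 (0.802% of all genes).

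Bet1 stood at 31.8, 29.6 and 31.9 CPM in the obese anti–PD-1 tumors, below each of the isotype values of 34.4, 49.5 and 39.9 CPM. It fell by 0.41 on the log2 scale (standard error 0.14, adjusted p = 0.473 by edgeR). Tmed2 stood at 50.2, 42.3 and 43.7 CPM with anti–PD-1, also below every isotype tumor, and fell by 0.28 (standard error 0.10, adjusted p = 0.474 by edgeR). The first treated tumor was the highest of the 3 for Tmed2, close to the lowest isotype tumor. Arf4 stood at 226, 208 and 208 CPM with anti–PD-1, where the first tumor overlapped the isotype group, and fell by 0.21 (adjusted p = 0.647 by edgeR). Bet1, Tmed2 and Arf4 were the 3 genes called in both comparisons. The call with anti–PD-1 held in 22 of 23 other settings for Bet1 and for Tmed2 but in 5 of 23 for Arf4, and the shared obese isotype tumors enter both with opposite sign. With obesity in isotype tumors, the log2 fold changes of the other 3 were 0.20 (Stx5a), 0.20 (Sec24d) and 0.26 (Kdelr3).

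Sec24d, a COPII adaptor that selects cargo, stood at 109, 96.1 and 101 CPM under isotype and 77.8, 87.7 and 78.4 CPM with anti–PD-1 in obese mice, without overlap. It fell by 0.33 (standard error 0.12, adjusted p = 0.517 by edgeR). The other adaptors did not separate in this way. Sec24a stood at 30.9, 28.7 and 36.0 CPM under isotype and 34.8, 31.3 and 26.8 with anti–PD-1, Sec24b at 86.8, 81.1 and 120.1 under isotype and 90.7, 110.3 and 107 CPM with anti–PD-1, and Sec24c at 189.9, 161 and 193 under isotype and 170.3, 182 and 167 CPM with anti–PD-1. Their log2 fold changes were -0.04, 0.10 and -0.07. Whether Sec24d responded differently from its paralogs was not tested.

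Kdelr3, a receptor that retrieves ER chaperones, had the lowest fold change of the 52 genes. It stood at 36.0, 19.5 and 19.2 CPM under isotype and 14.3, 15.8 and 14.6 CPM with anti–PD-1 in obese mice. The treated tumors were close together and all lower, and the first isotype tumor was far above the other 2. The log2 fold change was -0.74 (standard error 0.29, adjusted p = 0.548 by edgeR). Without the first isotype tumor it was -0.36 and was not called. Exons of Kdelr3 overlap those of Ddx17 on the opposite strand, and whether reads were counted by strand is not given in the sources used here. Kdelr1 stood at 165, 149 and 157 CPM in isotype and 150.4, 156 and 159 CPM in treated obese tumors, and Kdelr2 at 119, 150.5 and 135 under isotype and 125, 120.2 and 89.8 CPM with anti–PD-1, and both pairs of groups overlapped. Stx5a, the Golgi SNARE whose promoter window holds 2 copies of TGACGTGG, fell from 54.2 ± 3.56 to 46.6 ± 2.02 CPM (SD, n = 3, adjusted p = 0.658 by edgeR). That call held in 3 of 23 other settings, and DESeq2 did not make it.

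The count of 6 moved with single tumors. It was 2 without the third and 3 without the second obese anti–PD-1 tumor, 3 without the first obese isotype tumor, and 11 lower with 1 higher without the third obese isotype tumor. The median stayed between -0.13 and -0.10 when each tumor was left out in turn. T cell markers moved the other way, with 4 of 5 higher with anti–PD-1 and sums of 1.18 to 1.72 CPM with isotype and 3.88 to 11.7 CPM with anti–PD-1. Of the adipocyte markers, 6 of 6 were higher (median log2 fold change 3.05), with sums of 15.3 to 23.2 CPM with isotype and 34.8 to 79.2 CPM with anti–PD-1. Of the macrophage markers, 3 of 5 were higher, with sums of 115 to 219 CPM and 167 to 366 CPM. Fibroblast markers summed to 194 to 1070.1 CPM and 412 to 1824 CPM, and melanoma markers to 28270 to 30922 CPM and 27825 to 31886 CPM, so the melanoma sums overlapped. Skeletal muscle markers summed to 10.5 to 126 CPM with isotype and to 38.6, 253 and 565 CPM with anti–PD-1 (median log2 fold change 2.43, 1 of 6 called higher), and the mean levels of the 52 genes in the same treated tumors were 0.01, -0.03 and -0.10. The fit with the fibroblast covariate called 4 of the 52 lower with a median of -0.10. The fit with the muscle covariate called 3 lower (Bet1, Tmed2 and Sec24d) with a median of -0.08, and the part of other cell content was not tested.

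**Figure D4:**
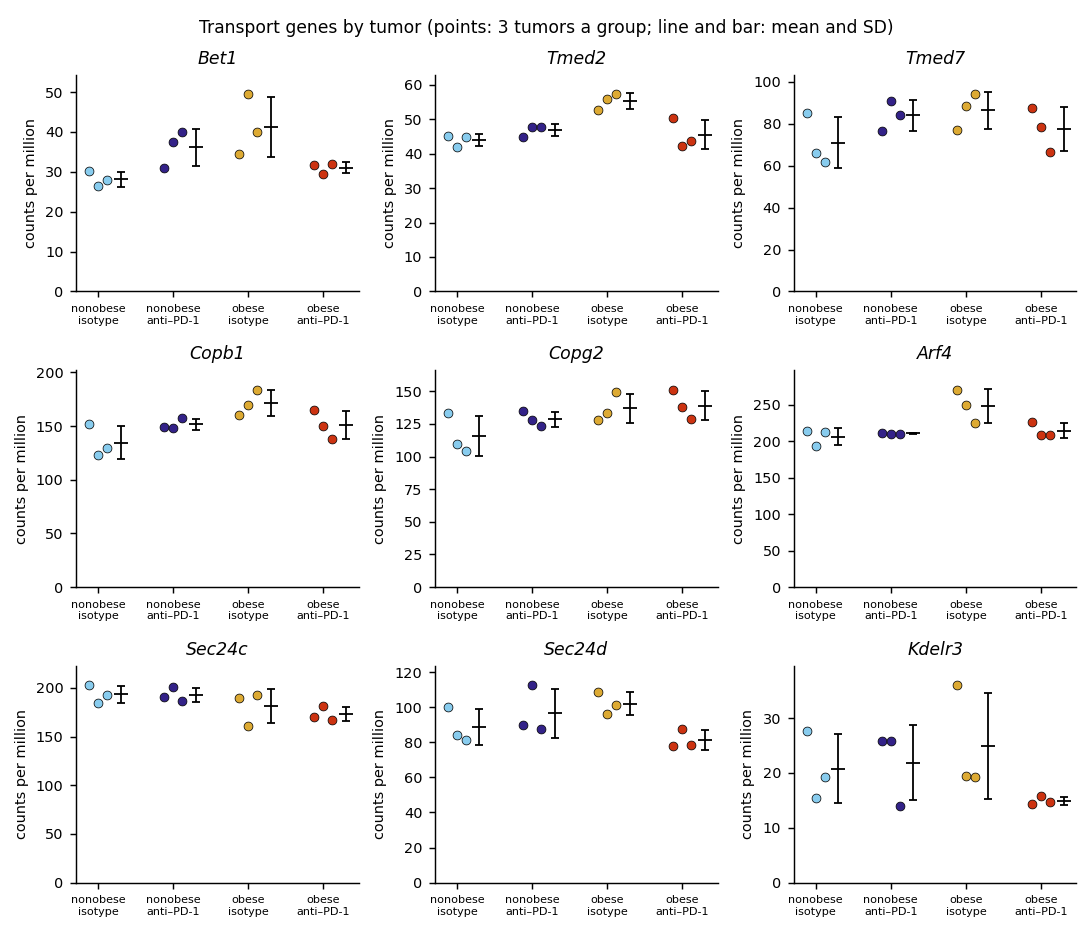
CPM of 9 transport genes in every tumor, with 3 points a group and the group mean and SD beside them, on axes that start at 0. Bet1 and Tmed2 have their highest group means in the obese isotype tumors. For Tmed2 all 3 of these lie above every other tumor, and for Bet1 they overlap the nonobese anti–PD-1 tumors. Kdelr3 is low and tight in the obese anti–PD-1 tumors.

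In nonobese mice, 1 of the 52 genes rose with anti–PD-1 and 0 fell, which is 1.92%, while 1.64% of all genes rose and 3.59% fell. The gene was Bet1, which stood at 30.1, 26.4 and 27.9 CPM under isotype and 31.1, 37.5 and 39.9 CPM with anti–PD-1, without overlap. Its log2 fold change was 0.36 (standard error 0.14, adjusted p = 0.860 by edgeR), and it was no longer called without the second nonobese isotype tumor or without the second or the third anti–PD-1 tumor, or with the fibroblast covariate. The smallest P values after Bet1 belonged to Tmed7, at 76.4, 91.0 and 84.3 CPM with anti–PD-1 (adjusted p = 0.929), and Copb1, at 149, 149 and 157 CPM (adjusted p = 0.929 by edgeR). No gene had an FDR below 0.05 by edgeR (0.0% of all genes). DESeq2 called 1 higher at an unadjusted P below 0.05, where it called 216 of 13095 genes higher and 514 lower. At an FDR below 0.05 it called 0 of the 52 (0.0687% of all genes). The median over the 52 genes was 0.05, against 0.02 for all genes, and 36 lay above 0 (69.2%, against 55.0% of all genes). The groups did not overlap for 5 genes that were higher and 1 that was lower, against 5.81% and 5.37% of all genes. Without the first nonobese isotype tumor, 6 genes were higher and the median was 0.12. With the fibroblast covariate, 0 genes were called and the median was -0.02. In this comparison 5 of 6 fibroblast, 5 of 5 macrophage and 3 of 6 adipocyte markers were lower with anti–PD-1 (median log2 fold changes -1.88, -1.005 and -1.90), and their part in the result was not tested beyond that covariate.

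Under anti–PD-1, obese and nonobese tumors were also compared, and 0 of the 52 genes were called in either direction by edgeR or by DESeq2 at an unadjusted P below 0.05, while 5.71% of all genes rose and 4.56% fell. The median was -0.04, against -0.01 for all genes, and 29 genes lay below 0 (55.8%, against 53.1% of all genes). At an FDR below 0.05, 0 of the 52 were called by either tool, against 0.382% of all genes by edgeR and 2.06% by DESeq2. The smallest P values belonged to Sec24d, Kdelr3 and Sec24c. Sec24d stood at 89.8, 113 and 87.5 CPM in nonobese and 77.8, 87.7 and 78.4 CPM in obese anti–PD-1 tumors, where the second obese tumor lay just within the nonobese range (log2 fold change -0.25, adjusted p = 0.516 by edgeR). Kdelr3 stood at 25.8, 25.8 and 14.0 in nonobese and 14.3, 15.8 and 14.6 CPM in obese tumors, where the third nonobese tumor was as low as the obese tumors (log2 fold change -0.55, adjusted p = 0.548). Sec24c stood at 191, 201 and 187 in nonobese and 170.3, 182 and 167 CPM in obese tumors, without overlap (log2 fold change -0.16, adjusted p = 0.639). All 3 obese tumors lay below all 3 nonobese tumors for 5 genes (9.62%, against 7.06% of all genes) and above them for 0 (6.54%), and 4 of the 5 belong to the COPII coat. Markers of T cells (5 of 5), macrophages (5 of 5), adipocytes (6 of 6) and fibroblasts (3 of 6) were higher in obese tumors here, with median log2 fold changes of 3.60, 1.28, 3.36 and 1.42. With the fibroblast covariate the median of the 52 genes was 0.02 and 1 gene was called.

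Next, the 2 responses to anti–PD-1 were compared directly over all 12 tumors, by subtracting the nonobese response from the obese one. This contrast reuses the tumors of the comparisons above and is no separate result. It equals the obesity effect under anti–PD-1 (median -0.04) minus that under isotype (median 0.20). The difference was below 0 for 44 of the 52 genes (84.6%, against 54.4% of all genes). For 10 genes it was called below 0 and for 0 above, which is 19.2%, while 5.87% of all genes were called below 0 and 7.01% above. Of the 14 genes on the study's list, 6 were called below 0 and 0 lay above 0, with a median of -0.32. Of the other 38, 4 were called below 0, 8 lay above 0 and the median was -0.13. Across the 52, the difference correlated with the length of the longest transcript at a Spearman rho of 0.39, against -0.04 across 12318 genes. Bet1 had the lowest P value, with a difference of -0.77 (standard error 0.20, adjusted p = 0.135 by edgeR). The other SNARE genes among the 10 were Sec22b (-0.49), Gosr2 (-0.36) and Stx5a (-0.32). The rest were Sec61b (-0.46), a small subunit of the translocon, Sec24d (-0.45) and Sar1a (-0.31) of the COPII coat, Mcfd2 (-0.44), Tmed2 (-0.37) and Copb1 (-0.35). No gene had an FDR below 0.05 by edgeR (0.0% of all genes). DESeq2 called 10 below 0 at an unadjusted P below 0.05, where it called 705 of 13095 genes below 0 and 1026 above. At an FDR below 0.05 it called 1 of the 52, Bet1 (2.16% of all genes). The count was 2 without the second and 4 without the third nonobese isotype tumor, 4 without the second nonobese anti–PD-1 tumor, 5 without the second and 3 without the third obese anti–PD-1 tumor and 5 without the first obese isotype tumor. It was 14 without the first nonobese isotype tumor and 15, of which 1 was above 0, without the third obese isotype tumor. With the fibroblast covariate, 1 gene was called. In the same contrast, markers of T cells (5 of 5), macrophages (5 of 5), fibroblasts (5 of 6) and adipocytes (6 of 6) were called above 0, with medians of 4.29, 1.91, 2.61 and 5.13. Skeletal muscle markers had a median of 2.59, with 1 of 6 called above 0. With the muscle covariate, 3 of the 52 genes were called below 0 (Bet1, Tmed2 and Sec24d) and the median was -0.12. Beyond these covariates, the part of cell content was not tested. Bet1 kept an unadjusted P below 0.05 in all 22 other settings run, Tmed2 in 19, Sec24d and Mcfd2 in 17, Sec22b and Gosr2 in 15, Copb1 in 12, Sar1a in 10, and Sec61b and Stx5a in 8. Over these settings the difference ran from -0.58 to -0.11 for Sec61b and from -0.59 to -0.17 for Sec22b.

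Over both treatments together, obese against nonobese tumors gave 2 genes higher and 0 lower, which is 3.85%, while 5.21% of all genes rose and 5.19% fell. These were Copb1 (log2 fold change 0.17, adjusted p = 0.454) and Copg2 (0.18, adjusted p = 0.454 by edgeR), with Arf4 next (0.14, adjusted p = 0.488). In the anti–PD-1 groups Copg2 stood at 135, 128 and 123 CPM in nonobese and 151, 138 and 129 CPM in obese mice, Copb1 at 149, 149 and 157 in nonobese and 164, 150.2 and 138 CPM in obese tumors, and Arf4 at 212, 209.9 and 210.0 in nonobese and 226, 208 and 208 CPM in obese tumors. Of these 3, Copg2 had a log2 fold change above 0.1 in both treatments. The median over the 52 genes was 0.08, against 0.00 for all genes, and 36 lay above 0 (69.2%, against 50.4% of all genes). At an FDR below 0.05, 0 of the 52 were called by edgeR (0.183% of all genes) and 0 by DESeq2 (1.37%). DESeq2 called 3 higher at an unadjusted P below 0.05, where it called 718 of 13095 genes higher and 751 lower. The count ranged from 0 to 7 when each tumor was left out. In the same contrast, 4 of 6 adipocyte markers and 2 of 5 T cell markers were higher (median log2 fold changes 1.02 and 1.14), and their part was not tested.

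The mean level of the 52 genes, each centered on its mean over all tumors, gave 1 value per tumor. It was -0.05 ± 0.11 in nonobese isotype, 0.01 ± 0.07 in nonobese anti–PD-1, 0.09 ± 0.03 in obese isotype and -0.04 ± 0.05 in obese anti–PD-1 tumors on the log2 scale (SD, n = 3). The first nonobese isotype tumor, at 0.07, lay within the obese isotype range of 0.05 to 0.10, so these groups overlapped, while the 3 obese anti–PD-1 tumors, between -0.10 and 0.01, were all below that range. For the SNARE genes the isotype groups did not overlap, with nonobese tumors between -0.21 and -0.05 and obese tumors between 0.05 and 0.30. The same held for the cargo receptor genes, with nonobese tumors between -0.20 and 0.08 and obese tumors between 0.09 and 0.19.

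**Figure D5:**
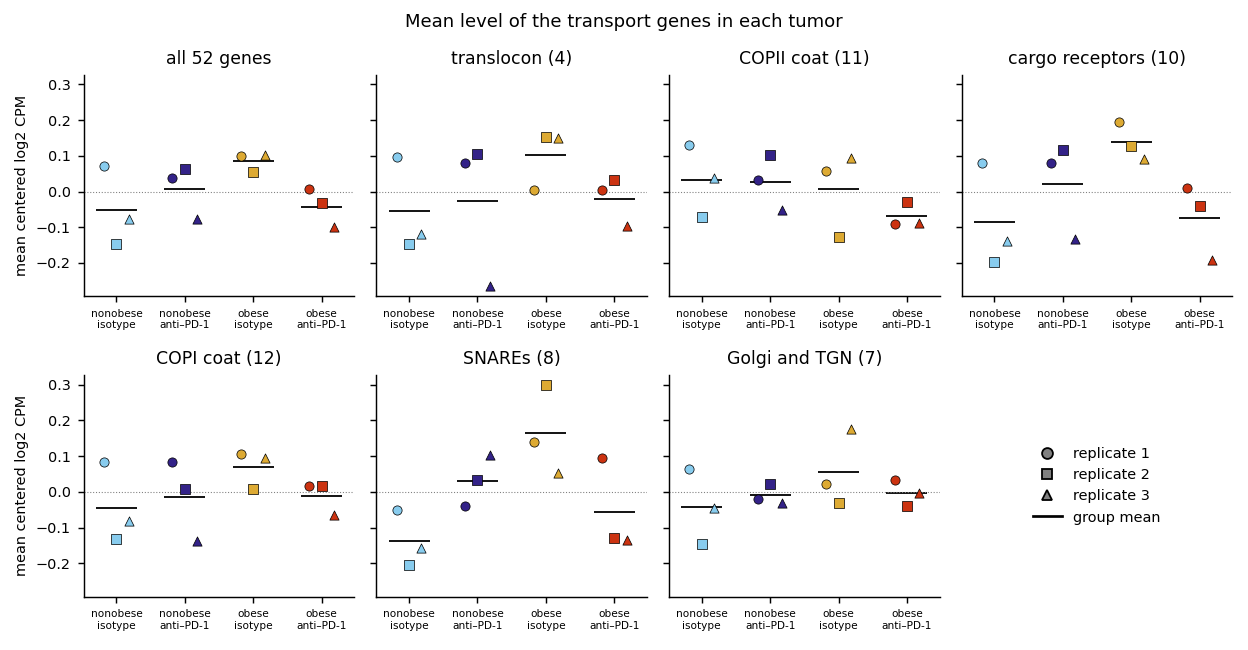
Mean centered log2 CPM of all 52 transport genes and of each of the 6 groups in every tumor, with a horizontal line for the group mean and marker shapes for replicates 1 to 3, which come from different mice. The SNARE panel separates the nonobese and obese isotype tumors, and the COPII panel does not. These groups of genes also differ in transcript length, and the part of length was not tested.

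Further lists show the surroundings of these genes. Other genes of early secretion that are not among the 52 numbered 99, of which 94 passed the filter. In isotype tumors, 17 of the 94 rose in obese mice and 1 fell, with a median of 0.08, while 7.11% of all genes rose and 6.17% fell. Among those that rose was Ssr3, of the translocon-associated complex, which was at 320.2 CPM on average in nonobese and 480.3 CPM in obese tumors (log2 fold change 0.59, adjusted p = 0.205 by edgeR). Tram1, a translocon partner, also rose (0.41, adjusted p = 0.224). Cog1, of the Golgi tethering complex, was the gene that fell (-0.25, adjusted p = 0.323). With anti–PD-1 in obese mice 7 of the 94 fell, among them Sec11c of the signal peptidase (-0.39, adjusted p = 0.233) and Trappc8 of the TRAPP tether (-0.38, adjusted p = 0.576), and 1, Cog1, rose (0.30, adjusted p = 0.430 by edgeR). Of all genes, 3.27% fell and 4.3% rose in that comparison.

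Targets and sensors of the unfolded protein response numbered 35, of which 34 passed the filter. In isotype tumors 14 rose in obese mice and 1 fell, with a median of 0.25, and in the anti–PD-1 comparison in obese mice 10 fell and 0 rose, with a median of -0.22. Of all genes, 7.11% rose and 6.17% fell in the first comparison, and 3.27% fell and 4.3% rose in the second. Dnajb9, an ER co-chaperone, rose from 16.2 to 29.4 CPM on average with obesity (log2 fold change 0.86, adjusted p = 0.125 by edgeR) and fell to 16.6 CPM with anti–PD-1 in obese mice (-0.82, adjusted p = 0.206). Derl1, of ER-associated degradation, rose with obesity (0.35, adjusted p = 0.170), and Herpud1, of the same pathway, fell with anti–PD-1 in obese mice (-0.45, adjusted p = 0.316 by edgeR). Creb3l1, a membrane-bound transcription factor of the secretory pathway, was the gene that fell with obesity (-0.42, adjusted p = 0.374). For the difference between responses, 12 of the 34 were below 0 and 1, Creb3l1, was above 0, against 5.87% and 7.01% of all genes. Under anti–PD-1, obese tumors had 5 lower and 1 higher, against 4.56% and 5.71% of all genes. In nonobese mice 2 rose and 1 fell with anti–PD-1, against 1.64% and 3.59% of all genes. There 32 of the 34 lay above 0, against 55.0% of all genes, and the median was 0.13, against 0.02 for all genes. The 8 genes of the 52 with TGACGTGG in their window had a median log2 fold change of 0.20 with obesity in isotype tumors and -0.20 with anti–PD-1 in obese mice, and the 34 matched genes without it had medians of 0.14 and -0.08. With obesity under anti–PD-1 the medians with and without it were -0.155 and 0.003, and over both treatments 0.009 and 0.082. They were 0.06 and 0.03 with anti–PD-1 in nonobese mice, and -0.33 and -0.13 for the difference of the responses. None of these pairs of medians was tested.

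The annotation adds limits for single genes. Exons of 19 of the 52 genes overlap exons of another gene in GENCODE M21, on the opposite strand for 16 of them, among them Copg2 with Mest, Arf4 with Arf4os and Pde12, and Kdelr3 with Ddx17, and on the same strand for 3, among them Tmed7 with Ticam2. Sec24a and Sar1b are neighbors on chromosome 11, with their starts 52 bases apart on opposite strands. In the isotype comparison their log2 fold changes were -0.11 and 0.20, on opposite sides of 0, and neither was called.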

How the data were processed

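Bulk tumor RNA was sequenced from stranded libraries, 3 tumors a group. The authors deposited counts of reads per gene that were not normalized. The submitters' processing notes name STAR 2.7.0f, HTSeq 0.9.1, mm10 and edgeR 3.28.1, and whether HTSeq counted by strand is not given in the sources used here. The members and lists were chosen with earlier results of these data known. Of 23420 genes, 17519 had at least 1 count, and filterByExpr kept 13095. Counts were scaled by TMM and fitted over all 12 tumors in edgeR 4.0.16 (R 4.3.3) with 4 group means, a common dispersion of 0.0352 and 8 residual degrees of freedom, and contrasts were tested by the quasi-likelihood test with Benjamini-Hochberg adjustment over all genes tested. Log2 CPM used a prior count of 2. DESeq2 1.42.0, other scalings and filters, a replicate block and leaving out each tumor were the alternatives. Fits with the fibroblast level, the skeletal muscle level or the length slope of each tumor as a covariate were added after the data were seen. Values in every tumor are given for the 3 members with the smallest P in each comparison, those called in at least 2 comparisons and their paralogs, and for Sec22b and Sec16a, chosen after their values were seen. Lengths and exon positions came from GENCODE M21 (GRCm38) and promoters from RefSeq. Fits were tested on simulated data. The table had 0 unused columns of samples.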

Additional observations from a re-analysis of the deposited data

Results flagged for a closer look

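For 10 of the 52 genes the response to anti–PD-1 differed between obese and nonobese mice at an unadjusted P below 0.05 by the edgeR test of the difference itself, and for none of them at an FDR below 0.05. That test reuses the tumors of the 4 comparisons of 2 groups, including the isotype tumors in which obesity was examined. The difference, obese minus nonobese on the log2 scale, was -0.77 for Bet1, -0.49 for Sec22b, -0.46 for Sec61b, -0.45 for Sec24d, -0.44 for Mcfd2, -0.37 for Tmed2, -0.36 for Gosr2, -0.35 for Copb1, -0.32 for Stx5a and -0.31 for Sar1a. The FDR was 0.135 for Bet1 and between 0.289 and 0.385 for the other 9. All 10 lay below 0, while 5.87% of all genes were called below 0 and 7.01% above. Of the 10, 6 were among the 14 genes on the study's list and 4 among the other 38. The median difference was -0.32 over all 14 and -0.13 over all 38. The list may rest on these same tumors, so the split gives no separate support. Over 22 other settings the difference ran from -0.59 to -0.17 for Sec22b and from -0.58 to -0.11 for Sec61b, which was called in 8 of them. The count was 2 without the second nonobese isotype tumor, 14 without the first, 15 without the third obese isotype tumor, 1 with the fibroblast covariate and 3 with a skeletal muscle covariate.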

How the results depend on the processing

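When each tumor was left out in turn, the number of the 52 genes with an unadjusted P below 0.05 was 4 to 19 for obesity in isotype tumors, 0 to 2 for obesity under anti–PD-1, 0 to 6 for anti–PD-1 in nonobese mice, 2 to 12 for anti–PD-1 in obese mice, 2 to 15 for the difference of the responses and 0 to 7 for obesity over both treatments. The medians were 0.10 to 0.25, -0.054 to -0.00301, 0.011 to 0.12, -0.13 to -0.10, -0.22 to -0.13 and 0.05 to 0.09 in the same order. For the 38 genes not on the study's list, the medians with all tumors were 0.11, -0.02, 0.03, -0.09, -0.13 and 0.02 in that order. With only the 6 tumors compared, the counts were 7 for obesity in isotype tumors and 1 for obesity under anti–PD-1. With the fibroblast covariate they were 6 (median 0.12), 1 (median 0.02), 0 (median -0.02), 4, 1 (median -0.084) and 4 in the same order of 6 comparisons. With the skeletal muscle covariate the count was 7 (median 0.11) for obesity in isotype tumors, 3 for anti–PD-1 in obese mice and 3 for the difference, and the median for obesity under anti–PD-1 lay just above 0. Genes with at least 1 count gave 1 for obesity under anti–PD-1 and 0 over both treatments, at least 10 counts in every tumor gave 6 for the difference, and the length slope gave 5 over both treatments. The cause was not tested. Samples with the same replicate number shared only that number (18 pairs, mean correlation of deviations 0.133, of which 10 exceeded 0.1, against -0.0623 for 36 other pairs). The replicate block gave 13, 1, 1, 6, 11 and 2 genes. Of all 13095 genes it called 825 higher and 821 lower, 772 and 512, and 159 and 530 in the first 3 comparisons. In the last 3 it called 592 and 382, 945 and 671, and 684 and 696. Of 372 values of named genes that had passed the threshold, 137 no longer passed it when a tumor was left out, and 0 changed direction. The share of all genes called was computed for DESeq2 and the replicate block but for no other alternative fit, so those counts lack that reference. Precision was limited by 3 tumors a group.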
